A study of Homo sapiens with 36 samples.

Results

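Ribosome biogenesis factors are the proteins that make, modify, cut and fold ribosomal RNA and join it to ribosomal proteins in the nucleolus. A set of 40 such genes was chosen by name and function, in 5 classes, with earlier results of these data known. The classes were the small nucleolar ribonucleoproteins (snoRNPs, 8 genes), factors of the small subunit (11), factors of the large subunit (12), RNA polymerase I and its initiation factors (4), and multifunctional nucleolar proteins (5). Of the 40, 39 were found among the 57771 genes of the count table and BOP1, a large subunit factor, was not analysed here. All 39 passed the filter on low counts and were among the 17983 genes tested.

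The cells were HepG2-IGF1R-KO. HepG2 is a line grown from a human liver tumour, and the label names a knockout of IGF1R, the IGF-1 receptor gene, which every group carries. The 4 groups of 9 libraries were untreated cells in normal medium, cells given 3 nM human insulin for 18 h in normal medium, untreated cells in insulin-resistant medium, and insulin-stimulated cells in insulin-resistant medium. In the insulin-resistant medium cells spent 72 h with 1 nM insulin, 20 mM glucose and palmitic, linoleic and oleic acid at 0.5 mM. Whether the 1 nM insulin was taken away before harvest of the untreated cells is not given in the sources used here. The comparisons ask how the cells respond to insulin in each medium.

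In the nucleolus, RNA polymerase I transcribes the long precursor of ribosomal RNA. Box C/D snoRNPs methylate the sugars of that precursor and box H/ACA snoRNPs turn chosen uridines into pseudouridine, while the small subunit processome and a series of large subunit particles cut and fold it. Hepatocytes make ribosomes in large numbers, and insulin is known to raise ribosome production through AKT, mTORC1 and MYC.

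Library totals ran from 26.6M to 117M counts, with a median of 64.6M. IGF1R transcripts were present in every library, at 77.8 to 134 CPM (counts relative to the library total), and since the edited position is not given in the sources used here this does not check the knockout. ALB, the hepatocyte gene for albumin, was at 3133 to 12854 CPM, and of 22 hepatocyte markers TTC36 alone was under 1 CPM in every library. A list of 16 stromal markers, which that label does not cover, summed to 24700 to 79300 CPM in 30 libraries and to 116 to 161 CPM in the other 6. Those 6 were insulin-stimulated replicates 4 to 6 in normal medium and untreated replicates 1 to 3 in insulin-resistant medium. In each of them COL1A1, which encodes a collagen chain that mesenchymal cells secrete, had 0.78 to 1.70 CPM against 8071 to 31870 CPM in the other 30, and 10 of the 16 stromal markers, COL1A2, COL3A1 and DCN among them, were under 1 CPM. Hepatocyte markers summed to 32600 to 37600 CPM in the 6 and to 12000 to 29700 CPM in the 30. The 16 proliferation markers summed to 764 to 2130 CPM over all libraries with overlapping ranges in the 4 groups. Endothelial markers summed to 0.915 to 4.36 CPM, and 5 cholangiocyte markers summed to 728 to 1710 CPM with CFTR under 1 CPM in every library. The 6 leukocyte markers summed to 675 to 1270 CPM in untreated and 343 to 910 CPM in insulin-stimulated cells in normal medium, and to 869 to 2440 and 985 to 1130 CPM in insulin-resistant medium. Of these PTPRC and CD3E were under 1 CPM in every library. Fewer cells of a type and less RNA per cell cannot be told apart in such bulk samples, and the part of the stromal, hepatocyte and leukocyte differences in the results below was not tested. The counts of members and the values of the genes described by group are therefore also given without the 6 libraries.

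Insulin in normal medium raised the transcripts of most ribosome biogenesis factors. Of the 39 members, 37 rose and none fell at an adjusted p under 0.05 (edgeR quasi-likelihood test, Benjamini-Hochberg over all genes), where 24.9% of all genes tested rose. The median log2 fold change was 0.84 over the members and 0.03 over all genes tested. The members with the largest log2 fold changes were LYAR at 1.31, RRP12 at 1.23, DDX21 at 1.21 and NOP56 at 1.16. The 2 members that did not pass were UBTF at 0.09 (adjusted p = 0.121) and NHP2 at 0.07 (adjusted p = 0.515). For 33 of the 39 members every one of the 9 insulin-stimulated libraries was above every one of the 9 untreated libraries, as was true of 6.63% of all genes. For 20 members every insulin-stimulated library in normal medium was also above each of the 27 other libraries of the study, against 2.98% of all genes. Without the 6 libraries low in COL1A1, 35 members rose and none fell, with a median of 0.53, where 15.4% of all genes tested rose; FBL (-0.01, adjusted p = 0.954) and NOP10 (0.14) then did not pass.

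**Figure D1:**
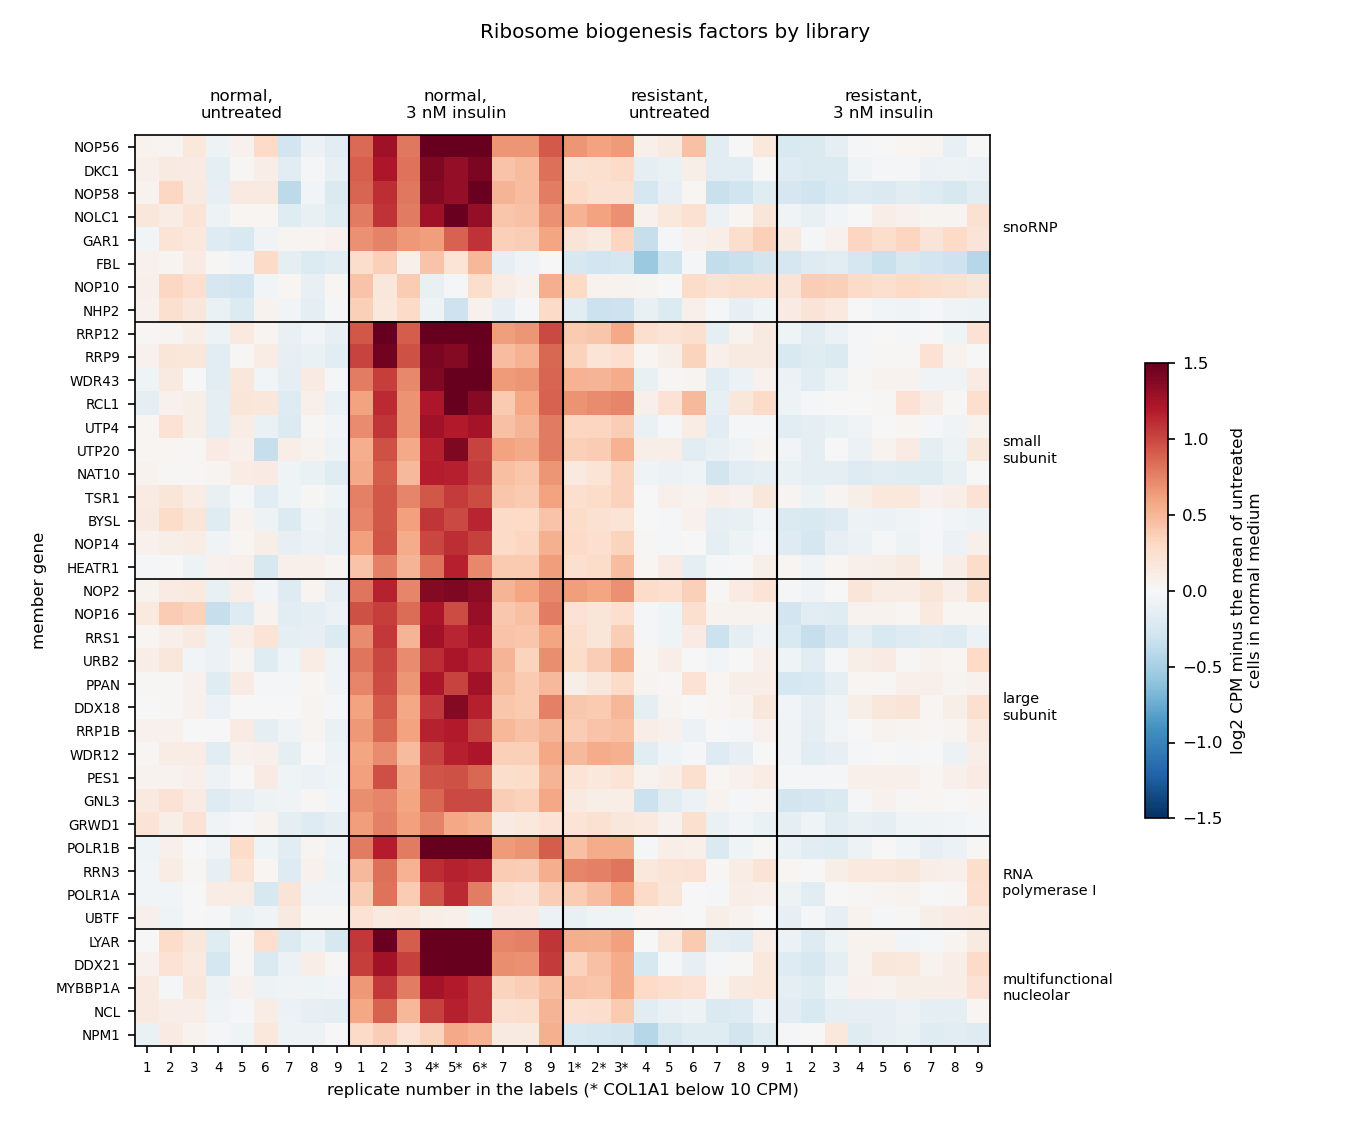
Level of each of the 39 members (rows, grouped by class) in each of the 36 libraries (columns, grouped by condition and ordered by replicate number). Colour is the log2 CPM of a library minus the mean over untreated cells in normal medium, with the scale ending at 1.5 in either direction; the insulin-stimulated libraries in normal medium are red in nearly every row, deepest in replicates 4 to 6, and UBTF, NHP2, NOP10 and FBL stay pale.

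The size of the rise differed between the sets of libraries. Within a group, replicates 1 to 3, 4 to 6 and 7 to 9 have neighbouring position codes in the table's column names and are called triplets here. Averaged over the 39 members and set to the untreated mean in normal medium, the log2 level of insulin-stimulated cells in that medium was 0.74 ± 0.16 (SD, n = 3) in replicates 1 to 3, 1.08 ± 0.02 in replicates 4 to 6 and 0.47 ± 0.13 in replicates 7 to 9. Replicates 4 to 6 are the ones low in COL1A1, and they stood above both other triplets. Untreated libraries in normal medium lay between -0.10 and 0.12, so that the lowest insulin-stimulated library, at 0.39, was above all of them. When the 3 libraries of a triplet were summed to 1 sample, which leaves 3 samples a group, 19 of the 39 members rose, against 1.76% of all genes tested, and the median log2 fold change was 0.71. Within single batch dates the median log2 fold change of the members was 0.55 (22 April), 0.82 (11 April) and 1.04 (24 May).

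The promoters of members with large and small responses are shown here because the genes moved together and their shared sequence features can be described. RefSeq windows of 250 bases before to 50 bases after the annotated start (GRCh38.p14) were at hand for 32 of the 40 members. The motif searched was CACGTG, the palindromic E-box that MYC with MAX and other helix-loop-helix factors are known to bind; it reads the same on both strands. In the lines below capitals mark the motif, and each promoter is written 5′ to 3′ on the strand of its gene. DDX21, LYAR and POLR1B have 2 windows each. The window shown is the one with the most matches to the motif, or at a tie the one with the lower start coordinate.
DDX21 (chr10:68956397-68956696, + strand, GRCh38.p14): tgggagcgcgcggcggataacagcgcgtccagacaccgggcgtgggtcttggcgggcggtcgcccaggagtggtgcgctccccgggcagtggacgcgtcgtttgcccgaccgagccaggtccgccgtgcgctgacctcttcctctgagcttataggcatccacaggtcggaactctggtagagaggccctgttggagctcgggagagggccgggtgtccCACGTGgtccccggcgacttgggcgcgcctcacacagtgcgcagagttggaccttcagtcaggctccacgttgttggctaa
LYAR (chr4:4289972-4290271, - strand, GRCh38.p14): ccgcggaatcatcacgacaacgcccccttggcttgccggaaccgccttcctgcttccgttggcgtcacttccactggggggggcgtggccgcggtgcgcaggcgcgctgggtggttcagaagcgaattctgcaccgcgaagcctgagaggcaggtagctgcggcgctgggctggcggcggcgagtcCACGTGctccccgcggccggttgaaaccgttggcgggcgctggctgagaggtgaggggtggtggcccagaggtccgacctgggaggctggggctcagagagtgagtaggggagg
RRP9 (chr3:51941855-51942154, - strand, GRCh38.p14): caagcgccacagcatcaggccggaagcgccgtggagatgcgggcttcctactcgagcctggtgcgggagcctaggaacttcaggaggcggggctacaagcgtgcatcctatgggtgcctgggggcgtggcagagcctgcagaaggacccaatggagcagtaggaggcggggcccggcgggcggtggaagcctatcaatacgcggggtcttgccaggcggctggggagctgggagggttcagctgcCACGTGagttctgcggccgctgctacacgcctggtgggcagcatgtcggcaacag
FBL (chr19:39846330-39846629, - strand, GRCh38.p14): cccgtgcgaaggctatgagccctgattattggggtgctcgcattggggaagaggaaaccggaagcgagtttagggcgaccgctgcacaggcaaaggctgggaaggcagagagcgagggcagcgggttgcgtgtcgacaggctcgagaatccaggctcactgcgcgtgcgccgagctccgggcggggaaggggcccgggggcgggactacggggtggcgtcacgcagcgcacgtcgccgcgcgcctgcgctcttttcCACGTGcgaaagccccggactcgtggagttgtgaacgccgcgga
NOP56 (chr20:2652382-2652681, + strand, GRCh38.p14): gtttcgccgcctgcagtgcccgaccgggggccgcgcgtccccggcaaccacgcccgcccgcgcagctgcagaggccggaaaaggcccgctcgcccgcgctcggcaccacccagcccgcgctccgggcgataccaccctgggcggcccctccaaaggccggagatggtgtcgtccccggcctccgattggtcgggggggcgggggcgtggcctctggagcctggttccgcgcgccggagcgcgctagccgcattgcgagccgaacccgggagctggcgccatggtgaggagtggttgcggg
POLR1B (chr2:112541786-112542085, + strand, GRCh38.p14): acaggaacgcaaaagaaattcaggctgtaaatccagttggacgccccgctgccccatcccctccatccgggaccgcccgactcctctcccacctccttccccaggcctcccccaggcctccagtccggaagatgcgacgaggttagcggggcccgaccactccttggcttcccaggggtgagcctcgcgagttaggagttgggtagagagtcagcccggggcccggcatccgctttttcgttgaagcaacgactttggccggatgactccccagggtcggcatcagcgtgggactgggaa

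In the windows shown the motif began 31 bases before the annotated start of DDX21, 64 before that of LYAR and 5 before that of RRP9. In FBL it began at base 7 of the transcript. NOP56 and POLR1B, whose log2 fold changes of 1.16 and 1.12 were among the larger ones, have no CACGTG in these windows. In all, 17 of the 32 members (53.1%) had at least 1 CACGTG, against 7.26% of all 35116 promoter windows and 8.77% of 27305 genes counted over any of their windows. The share was 8 of 10 among small subunit factors, 3 of 6 among snoRNP genes, 3 of 7 among large subunit factors, 3 of 5 among multifunctional nucleolar genes and 0 of 4 among RNA polymerase I genes. Among other ribosome biogenesis genes that are no members it was 30.2% (29 of 96), and among genes of cytosolic ribosomal proteins 6.35% (4 of 63). The insulin response did not separate the members with the motif from those without: the median log2 fold change was 0.84 (range 0.19 to 1.31) in 17 members with it and 0.74 (range 0.07 to 1.16) in 15 without it, and the ranges overlap. A match of letters describes the window only.

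Among RNA polymerase I genes, POLR1B (ENSG00000125630), which encodes the second-largest subunit, rose most. Its level (CPM scaled by edgeR's trimmed mean of M values, as are all gene levels below) was 41.9 to 56.5 CPM, median 45.1, in the 9 untreated libraries in normal medium. With insulin it was 72.9 to 144 CPM, median 87.7, and no library overlapped with the untreated ones. The levels 132 to 144 CPM all belong to replicates 4 to 6, those low in COL1A1, and the other 6 libraries lay at 72.9 to 106 CPM. The log2 fold change was 1.12 ± 0.12 (SE), a 2.17-fold rise (adjusted p = 9.87e-09), and 0.75 without the 6 libraries. RRN3 (ENSG00000085721), the initiation factor TIF-IA that couples the polymerase to growth signals, was at 69.6 to 91.7 CPM untreated and 103 to 177 CPM with insulin. Its groups did not overlap either, and its log2 fold change was 0.75 ± 0.11 (adjusted p = 2.67e-06). POLR1A, the largest subunit, rose by 0.61 ± 0.11 on the log2 scale. RRN3 and POLR1A still passed without the 6 libraries, at 0.44 and 0.31. RRN3 has near-identical pseudogene copies, and how the authors' counting split their reads cannot be checked here.

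UBTF (ENSG00000108312), which encodes the factor that coats ribosomal DNA and opens it for the polymerase, stood apart from these. Its level was 91.9 to 108 CPM, median 98.7, untreated and 93.0 to 114 CPM, median 107, with insulin. The 2 ranges overlap over most of their width. The 27 libraries outside the insulin-stimulated normal group lay between 90.5 and 109 CPM. Its log2 fold change was 0.09 ± 0.04 (adjusted p = 0.121) and -0.01 without the 6 libraries.

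Of the 8 snoRNP genes, 7 rose. NOP56 (ENSG00000101361), a core scaffold protein of box C/D snoRNPs, was at 207 to 308 CPM, median 259, untreated and at 398 to 805 CPM, median 477, with insulin. Every insulin-stimulated library was above every untreated one, and the 3 libraries low in COL1A1 held the highest levels, 724 to 805 CPM. The log2 fold change was 1.16 ± 0.13, a 2.23-fold rise (adjusted p = 1.51e-08), and 0.79 without the 6 libraries. DKC1 (ENSG00000130826), the pseudouridine synthase of box H/ACA snoRNPs, was at 91.7 to 113 CPM untreated and 138 to 273 CPM with insulin. Its groups were again apart, with a log2 fold change of 1.02 ± 0.10 (adjusted p = 3.30e-09) and 0.70 without the 6 libraries. NOP58, the partner of NOP56, rose by 1.00 ± 0.12, the snoRNP chaperone NOLC1 by 0.96 ± 0.12 and the H/ACA protein GAR1 by 0.66 ± 0.08 on the log2 scale.

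The other core proteins of the same particles moved little. FBL (ENSG00000105202), fibrillarin, the methyltransferase of box C/D snoRNPs, was at 107 to 151 CPM, median 126, untreated and 114 to 175 CPM, median 142, with insulin. These ranges overlap, and the rise of 0.20 ± 0.07 on the log2 scale (adjusted p = 0.0259) became -0.01 without the 6 libraries and did not pass with DESeq2 (0.13). NHP2 (ENSG00000145912), an RNA-binding protein of H/ACA snoRNPs, was at 52.2 to 71.1 CPM, median 59.0, untreated and 48.5 to 77.5 CPM, median 62.8, with insulin. The insulin-stimulated range holds the whole untreated range, and the log2 fold change was 0.07 ± 0.08 (adjusted p = 0.515), 0.03 without the 6 libraries. NOP10, the small protein that bridges NHP2 and DKC1, had a log2 fold change of 0.19 ± 0.07 (adjusted p = 0.0307), which did not pass with DESeq2 (0.12) or without the 6 libraries (0.14).

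The partners within a particle can be set side by side as a ratio in each library. These 5 ratios were chosen after the values had been seen, since they pair members with large and small changes, so they are given as a description with no test. The log2 ratio of DKC1 to NHP2 was 0.65 to 1.00 in untreated libraries and 1.27 to 2.41 in insulin-stimulated ones in normal medium. The groups do not overlap, and the means were 0.77 ± 0.12 and 1.68 ± 0.47 (SD, n = 9 each). The log2 ratio of NOP56 to FBL had means of 1.03 ± 0.09 untreated and 1.95 ± 0.26 with insulin, and that of NOP58 to FBL had means of -0.41 ± 0.18 and 0.38 ± 0.20. The differences of means were 0.91, 0.93 and 0.78 for these 3 ratios, 0.77 for DKC1 to NOP10 and 0.31 for DKC1 to GAR1. Without the libraries low in COL1A1 they were 0.62, 0.77, 0.67, 0.49 and 0.21 in the same order. In insulin-resistant medium the log2 ratio of DKC1 to NHP2 was 0.63 to 1.36 untreated and 0.36 to 0.80 with insulin, and the 2 ranges overlap. The log2 ratio of NOP56 to FBL was 1.24 to 1.93 untreated and 1.00 to 1.46 with insulin in that medium. Its untreated values there lay above the 0.88 to 1.15 of untreated cells in normal medium. Untreated means of DKC1 to NOP10 and DKC1 to GAR1 were 1.24 and 2.01 in insulin-resistant medium, below 1.37 and 2.10 in normal medium. The ratios describe transcripts and not the proteins in the particles.

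**Figure D2:**
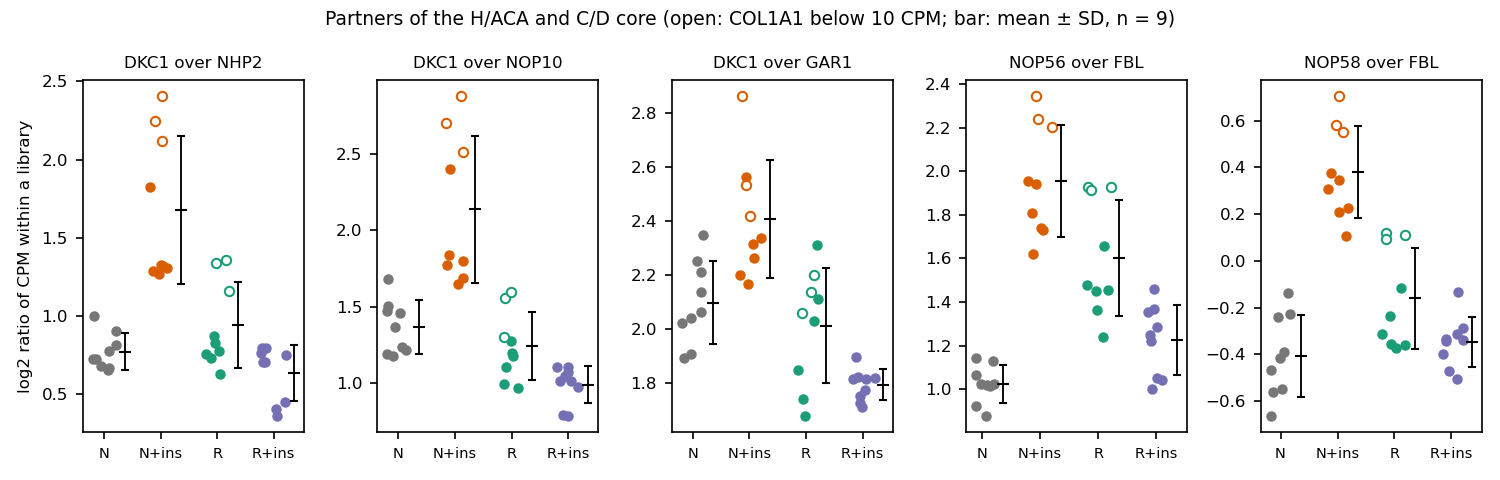
Log2 ratio of the CPM of 2 snoRNP partners within a library (y axis) in the 4 groups (x axis: N, normal medium; R, insulin-resistant medium; ins, 3 nM insulin), 1 panel for each of the 5 pairs. Each point is a library, open where COL1A1 is below 10 CPM, and bars are mean ± SD of 9; for DKC1 over NHP2 the insulin-stimulated libraries in normal medium start at 1.27, above the highest untreated one at 1.00.

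All 11 small subunit factors rose with insulin in normal medium, by 0.66 to 1.23 on the log2 scale (median 0.87). RRP12 (ENSG00000052749), an export and processing factor of pre-40S particles, was at 47.2 to 56.8 CPM, median 51.8, untreated and 79.4 to 164 CPM, median 101, with insulin. No library overlapped between the groups; replicate 2 (145 CPM) and the 3 libraries low in COL1A1 (149 to 164 CPM) were the highest. The log2 fold change was 1.23 ± 0.11, a 2.35-fold rise (adjusted p = 6.11e-10), and 0.88 without the 6 libraries. RRP9 (ENSG00000114767), a protein of the U3 snoRNP that starts small subunit processing, went from 25.0 to 31.9 CPM untreated to 38.8 to 78.6 CPM with insulin. The groups were apart and the log2 fold change was 1.11 ± 0.10 (adjusted p = 8.93e-10), 0.82 without the 6 libraries. WDR43, UTP4, UTP20 and HEATR1 belong to the processome that forms on the precursor. HEATR1 (ENSG00000119285) had the smallest change of the class, 0.66 ± 0.08, from 68.0 to 84.7 CPM untreated to 105 to 179 CPM with insulin, again with no overlap, and 0.42 without the 6 libraries. The values of the others were WDR43 1.06, RCL1 0.97, UTP4 0.91, UTP20 0.87, the RNA acetyltransferase NAT10 0.80, TSR1 0.77, BYSL 0.75 and NOP14 0.74 as log2 fold changes, and all passed. All 11 also passed without the 6 libraries, at 0.42 to 0.88 (median 0.57).

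All 11 measured large subunit factors rose too, by 0.50 to 1.00 on the log2 scale (median 0.84). NOP2 (ENSG00000111641), an RNA cytosine methyltransferase, was at 43.6 to 55.5 CPM, median 51.6, untreated and 71.1 to 132 CPM, median 87.4, with insulin. Its groups were apart, with the libraries low in COL1A1 at 127 to 132 CPM, and the log2 fold change was 1.00 ± 0.11, a 2.00-fold rise (adjusted p = 1.04e-08), and 0.67 without the 6 libraries. NOP16 (ENSG00000048162), a protein of early pre-60S particles, went from 18.2 to 30 CPM untreated to 30.5 to 56.9 CPM with insulin. Its ranges touch closely without overlap, and its log2 fold change was 0.90 ± 0.10 (adjusted p = 1.99e-08), 0.63 without the 6 libraries. GRWD1 (ENSG00000105447), a histone and ribosomal protein chaperone, changed least, from 40.4 to 53.7 CPM untreated to 50.2 to 77.8 CPM with insulin. These ranges overlap, and the log2 fold change was 0.50 ± 0.08 (adjusted p = 2.76e-06), 0.33 without the 6 libraries. PES1 and WDR12, which form a complex with BOP1, rose by 0.70 and 0.74, and the GTPase GNL3 (nucleostemin), the helicase DDX18, RRS1, URB2, PPAN and RRP1B by 0.69 to 0.86. PPAN has a read-through transcript with its neighbour, and the authors' split of those reads cannot be checked. All 11 again passed without the 6 libraries, at 0.33 to 0.67 (median 0.52).

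All 5 multifunctional nucleolar genes rose. LYAR (ENSG00000145220), a nucleolar zinc-finger protein linked to ribosomal RNA transcription and processing, had the largest log2 fold change of all members. It was at 24.0 to 34.5 CPM, median 28.4, untreated and 47.1 to 102 CPM, median 59.7, with insulin. The groups did not overlap, replicates 4 to 6 held the 3 highest levels (91.6 to 102 CPM), and the log2 fold change was 1.31 ± 0.13, a 2.48-fold rise (adjusted p = 4.22e-09), and 0.93 without the 6 libraries. DDX21 (ENSG00000165732), an RNA helicase that acts in polymerase I transcription and early processing, went from 199 to 278 CPM untreated to 384 to 810 CPM with insulin. Its groups were apart and its log2 fold change was 1.21 ± 0.12 (adjusted p = 2.12e-09), 0.86 without the 6 libraries. NPM1 (ENSG00000181163), nucleophosmin, an abundant chaperone of the outer nucleolus, was at 983 to 1170 CPM, median 1040, untreated and 1150 to 1550 CPM, median 1330, with insulin. The ranges overlap slightly, and the log2 fold change was 0.35 ± 0.06 (adjusted p = 1.39e-05), 0.17 without the 6 libraries. NPM1 has many processed pseudogenes, which the authors' counting may split. MYBBP1A, a nucleolar stress regulator, and NCL, nucleolin, rose by 0.84 and 0.73. All 5 passed without the 6 libraries, at 0.17 to 0.93 (median 0.53).

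**Figure D3:**
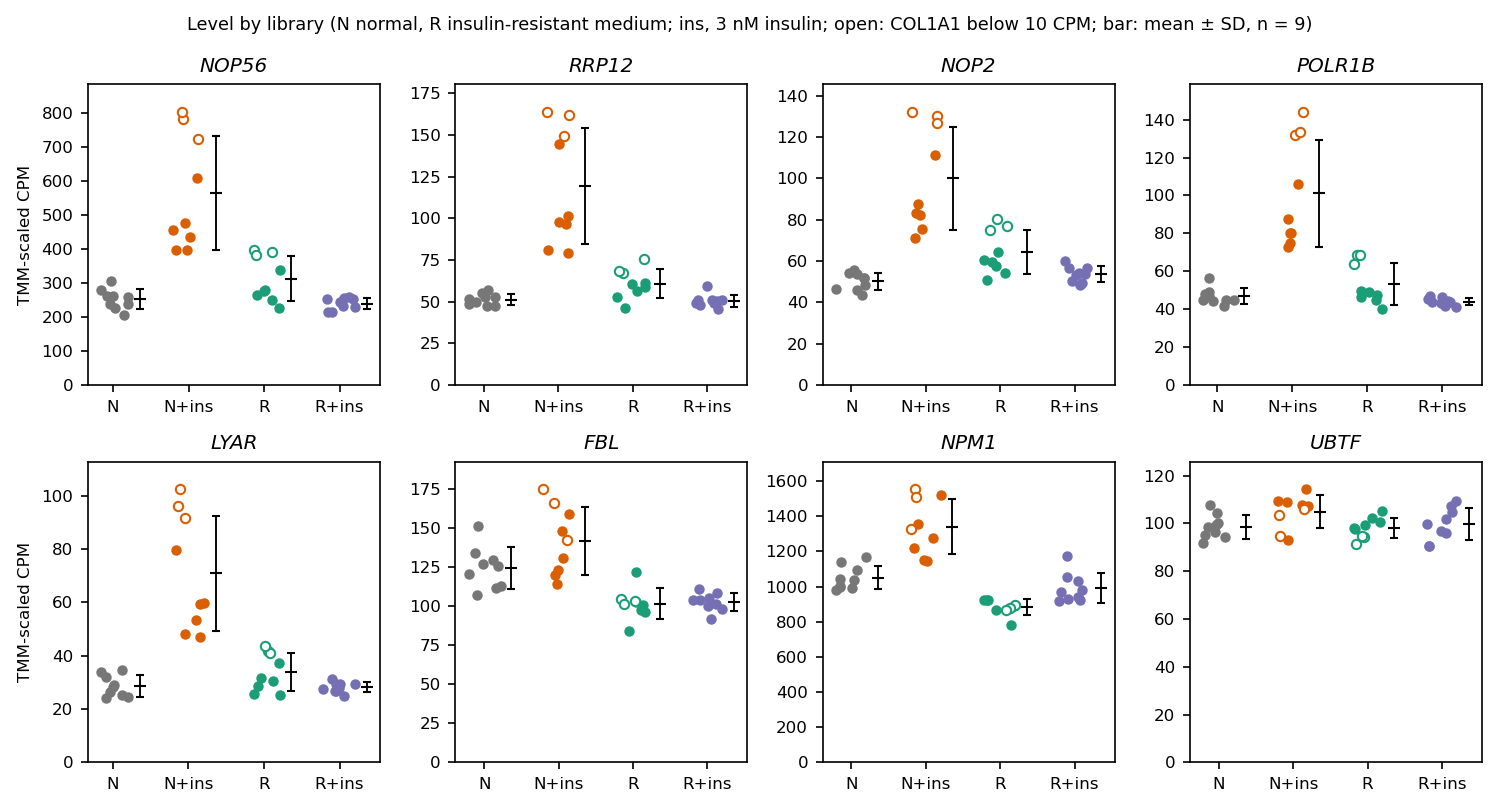
Level (TMM-scaled CPM, y axis from 0) of 8 members in each library of the 4 groups (x axis: N, normal medium; R, insulin-resistant medium; ins, 3 nM insulin), with open points where COL1A1 is below 10 CPM and bars for mean ± SD of 9 libraries. NOP56, RRP12, NOP2, POLR1B and LYAR stand highest in insulin-stimulated normal medium, while FBL overlaps between the groups of that medium and UBTF stays between 90.5 and 114 CPM throughout.

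In insulin-resistant medium no member passed the test for 3 nM insulin. None of the 39 rose or fell at an adjusted p under 0.05 (edgeR), and neither did any of the 17983 genes tested (0% called). DESeq2 called no member either. At an unadjusted p under 0.05 there were 10 members, and the median log2 fold change of all 39 was -0.18 (range -0.39 to 0.15). NOP56 had the largest value, -0.39 ± 0.14 (adjusted p = 0.101): it was at 226 to 398 CPM, median 280, without and 214 to 259 CPM, median 246, with insulin. The higher untreated levels, 382 to 398 CPM, were in replicates 1 to 3, which are low in COL1A1. With the 6 libraries left out its log2 fold change was -0.10, the median over members was 0, and no member had an unadjusted p under 0.05. A fit of only the 2 groups, which estimates the spread from these libraries alone, called 21 members lower, where 16.3% of all genes were lower, and NHP2 higher (0.21), where 7.01% of all genes were higher. LYAR was at 25.2 to 43.5 CPM without and 24.8 to 31.3 CPM with insulin in this medium, and POLR1B at 40.1 to 68.9 and 41.2 to 47.2 CPM. In both the untreated range is the wider one and holds nearly all of the stimulated range. The sign of the members' median depended on the scaling. Scaled to hepatocyte marker genes, which moved the median of all genes to 0.35, all 39 members were above 0 in this comparison. Their median log2 fold change was then 0.22 (range 0.04 to 0.49), with 20 at an unadjusted p under 0.05 (edgeR) and none called.

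**Figure D4:**
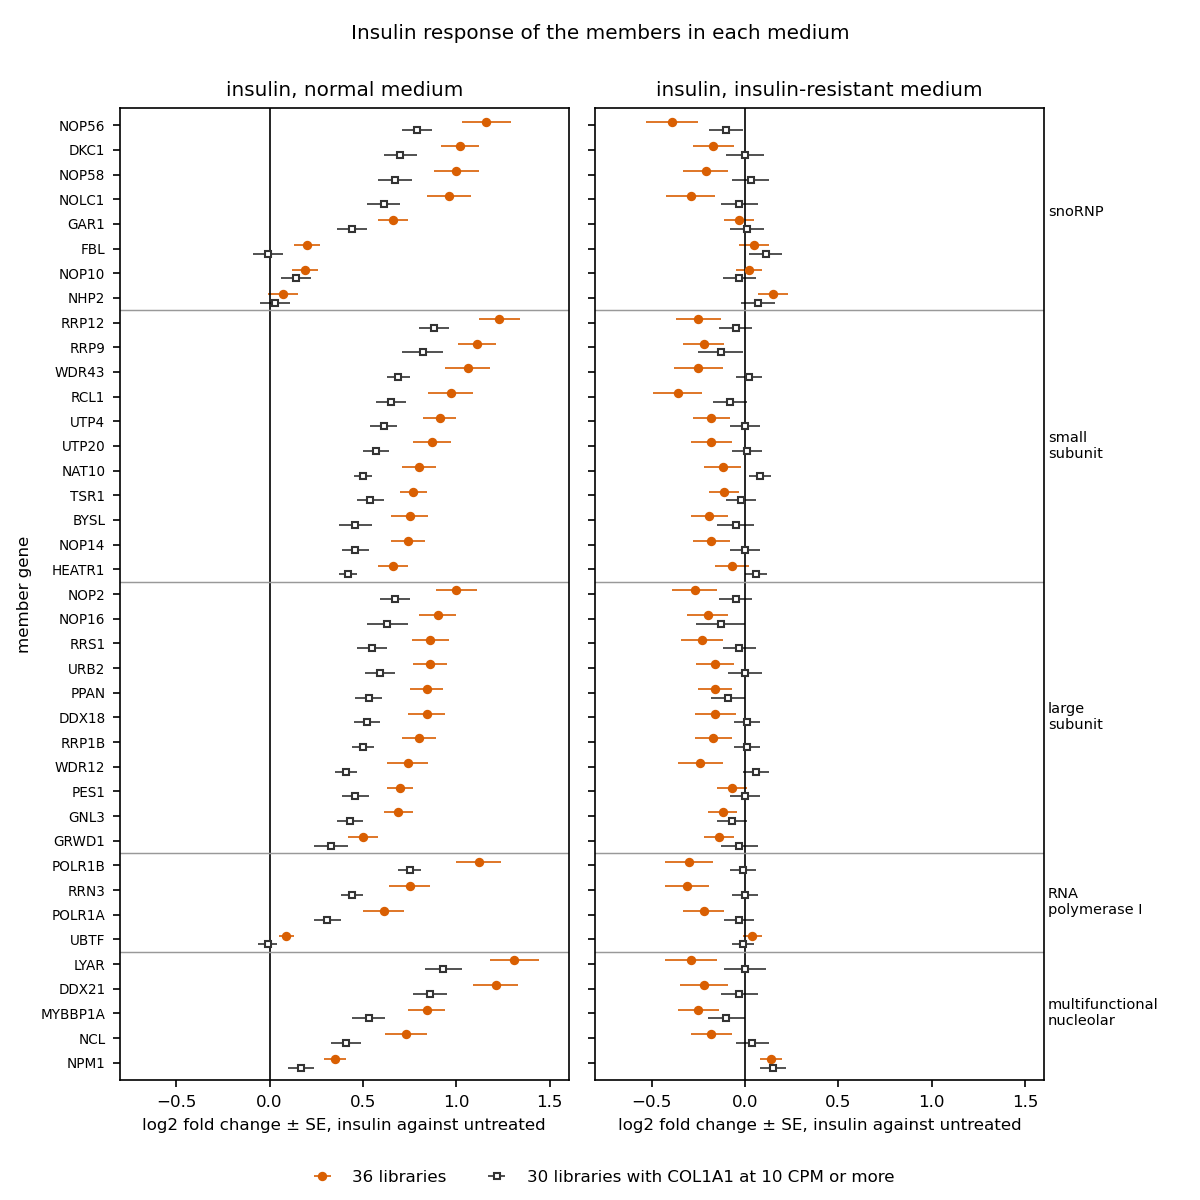
Log2 fold change with insulin (x axis; points ± SE) of each member (y axis, by class) in normal medium (left) and insulin-resistant medium (right), from all 36 libraries (filled circles) and from the 30 libraries with COL1A1 at 10 CPM or more (open squares). In normal medium most members lie between 0.5 and 1.31 with all libraries and lower without the 6; in insulin-resistant medium the values lie between -0.39 and 0.15.

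The difference between the 2 insulin responses was tested directly. It was taken as the log2 fold change of the insulin-resistant medium less that of the normal medium. Of the 39 members, 34 had a response that was lower in insulin-resistant medium and none had a higher one, where 23.5% of all genes tested were lower. The median difference was -1 for the members and -0.01 for all genes. The largest differences were those of LYAR at -1.60 ± 0.19 (adjusted p = 4.30e-07) and NOP56 at -1.56 ± 0.19 (adjusted p = 3.70e-07). RRP12 (-1.48 ± 0.16), DDX21 (-1.43 ± 0.17) and POLR1B (-1.41 ± 0.17) followed. These 5 differences without the 6 libraries were -0.93, -0.89, -0.94, -0.89 and -0.76, and all 5 still passed. The 5 members that did not pass were NPM1 (-0.21), NOP10 (-0.17), FBL (-0.15), UBTF (-0.05) and NHP2 (0.08). Without the 6 libraries 33 members were lower, with a median of -0.56, against 9.37% of all genes, and GRWD1 (-0.36, adjusted p = 0.0639) then missed the threshold. This difference rests on the libraries being independent. With each triplet summed to 1 sample no member passed (edgeR, lowest adjusted p = 0.127), although 34 had an unadjusted p under 0.05 and the median difference was -0.89. Within the 22 April batch no member passed, 33 had an unadjusted p under 0.05 and the median was -0.87; within the 11 April batch 18 members were lower, with a median of -0.98, against 2.97% of all genes. The 24 May batch has no insulin-stimulated library in insulin-resistant medium.

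Among insulin-stimulated cells, those in insulin-resistant medium had lower levels of 36 of the 39 members and a higher level of none, where 26.3% of all genes tested were lower. The 3 others were NHP2 (-0.06), UBTF (-0.06) and NOP10 (-0.01). The median log2 fold change was -0.88, and -0.59 without the 6 libraries, where 36 members and 18.2% of all genes were lower. With summed triplets 27 members were lower, against 3.01% of all genes. This comparison shares its libraries with the preceding ones. LYAR was 47.1 to 102 CPM in normal and 24.8 to 31.3 CPM in insulin-resistant medium, a log2 fold change of -1.35 ± 0.14 (adjusted p = 5.29e-09), -0.96 without the 6 libraries. DKC1 was 138 to 273 CPM against 88.3 to 102 CPM, a log2 fold change of -1.15 ± 0.11 (adjusted p = 9.51e-10), -0.84 without the 6 libraries. In neither gene did a library of one medium overlap with the other medium. FBL was 114 to 175 CPM against 92.1 to 111 CPM and NPM1 1150 to 1550 CPM against 921 to 1170 CPM, with log2 fold changes of -0.45 ± 0.08 and -0.46 ± 0.06, both called. Both also passed without the 6 libraries, at -0.25 and -0.31. Scaling the libraries to hepatocyte marker genes, which moved the median of all genes to 0.47, turned FBL to 0.09, NPM1 to 0.06 and UBTF to 0.43, and left 25 members lower, where 3.85% of all genes were lower, and UBTF higher, where 36.4% of all genes were higher.

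Without insulin stimulation the medium changed few members. At an adjusted p under 0.05, 4 members were higher in insulin-resistant medium (13.3% of all genes tested were) and 2 were lower (8.62% of all genes). The 4 were the small subunit factor RCL1 (0.38 ± 0.12), RRN3 (0.38 ± 0.11), NOP2 (0.36 ± 0.11) and MYBBP1A (0.28 ± 0.10). None of the 4 passed without the 6 libraries, where their log2 fold changes were 0.12, 0.09, 0.14 and 0.12. RCL1 was at 25.8 to 26.8 CPM in replicates 1 to 3, those low in COL1A1, and at 14.9 to 22.6 CPM in replicates 4 to 9, beside 14.1 to 18.4 CPM in untreated cells in normal medium. Leaving out any 1 of replicates 1 to 3 from the fit also left 0 higher calls.

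FBL and NPM1 went the other way. FBL was at 107 to 151 CPM in normal and 84.0 to 122 CPM in insulin-resistant medium without insulin, a log2 fold change of -0.29 ± 0.07 (adjusted p = 0.00273). Its ranges overlap, and the value was -0.37 without the 6 libraries. NPM1 was at 983 to 1170 CPM in normal and 781 to 925 CPM in insulin-resistant medium, with no overlap, a log2 fold change of -0.25 ± 0.06 (adjusted p = 0.00177) and -0.29 without the 6 libraries. Without those libraries NOP58 (-0.27) and NAT10 (-0.20) were lower too, so that 4 of the 39 members were lower, a smaller share than the 16% of all genes called lower there. Neither FBL nor NPM1 passed with summed triplets, where no member did and 2 had an unadjusted p under 0.05, or within any batch.

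The 6 libraries low in COL1A1 allow the members to be read in libraries alike in that respect, though medium and insulin both differ between them. In these, untreated replicates 1 to 3 in insulin-resistant medium had a mean member level of 0.32 ± 0.04 (SD, n = 3), relative to untreated normal medium, against 1.08 ± 0.02 in insulin-stimulated replicates 4 to 6 in normal medium. For 36 of the 39 members all 3 of the latter were above all 3 of the former, as were 27.4% of all genes, and the exceptions were NHP2, NOP10 and UBTF. In the 30 other libraries the mean member level was 0.60 ± 0.20 with insulin in normal medium (n = 6), 0.01 ± 0.06 untreated in insulin-resistant medium (n = 6) and -0.02 ± 0.07 with insulin in that medium (n = 9). The 0.32 of the untreated replicates 1 to 3 was above the 0.03 and -0.01 of the other 2 triplets of that group, and its relation to the stromal level was not tested.

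Other genes of the pathway, taken from lists that do not overlap with the members, moved in the same direction in normal medium with smaller median values. Of 44 other large subunit factors 42 rose with insulin and none fell, with a median log2 fold change of 0.58, led by adjusted p by RPF2 (0.90), NIFK (0.74) and PAK1IP1 (1.00). Of 42 other small subunit factors 34 rose and none fell, with a median of 0.49, among them NOL6 (0.89), PNO1 (1.07) and KRR1 (0.47). Of 12 other RNA polymerase I genes 10 rose, median 0.48, with TAF1A (0.97), POLR1C (0.63) and POLR1E (0.59), and of 8 other snoRNP genes 7 rose, median 0.31, with ZNHIT6 (0.56), NAF1 (0.74) and SNU13 (0.34). Of all genes tested 24.9% rose. The 4 lists without the 6 libraries had 36, 31, 8 and 5 genes higher and none lower, where 15.4% of all genes were higher. The insulin response was lower in insulin-resistant medium for 39 of 44, 34 of 42, 10 of 12 and 4 of 8, against 23.5% of all genes. Without the 6 libraries it was lower for 28, 22, 6 and 3 of them, against 9.37% of all genes.

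Fewer transcripts of the ribosomal proteins themselves passed the test. Of 79 cytosolic ribosomal protein genes, 6 rose with insulin in normal medium and none fell, where 24.9% of all genes rose. The median log2 fold change of the 79 was 0.10. Without the 6 libraries none passed and 1 had an unadjusted p under 0.05, where 15.4% of all genes rose. RPL19 (0.27), RPS2 (0.19) and RPL13 (0.18) had the smallest adjusted p. The difference of insulin responses between media passed for 1 of the 79, and for none without the 6 libraries. Of all genes 23.5% were lower and 6.22% higher in that difference, and 9.37% and 12.4% without the 6 libraries. In insulin-resistant medium without insulin 34 of the 79 were lower and none higher, with a median of -0.23, beside the 8.62% of all genes that were lower. Without the 6 libraries 18 of the 79 were lower, with a median of -0.12, beside 16% of all genes. Ribosomal protein genes have many processed pseudogenes, and their reads may be split. Of the 16 proliferation markers none rose and 1, PCNA (-0.38), fell with insulin in normal medium, with a median of -0.08. In that comparison 24.9% of all genes rose and 10.2% fell.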

How the data were processed

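Poly-A RNA of HepG2-IGF1R-KO cells was sequenced as strand-specific libraries, per the labels' protocols. The authors deposited 1 table of expected counts (estimated reads per Ensembl gene, with no scaling), made with STAR, Salmon and the build GRCh37 per the submitters' processing notes, with versions and counting settings not given in the sources used here. Values that were not whole made up 15.5% of the table, and counts were rounded. Symbols came from a later annotation through the Ensembl identifier (51994 of 57771 genes), and BOP1 was not matched.

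Libraries were grouped by title. The 36 libraries were fitted together with a term per group and per batch date in edgeR 4.0.16 (R 4.3.3) with TMM scaling, the filterByExpr filter and the robust quasi-likelihood F-test. Benjamini-Hochberg adjustment ran over 17983 genes, with a threshold of 0.05. The labels call the 9 libraries of a group biological replicates, but the triplets share levels of stromal transcripts, so that p-values treat as independent what may be 3 cultures. Batches of 22 April, 11 April and 24 May held 4, 2 and 3 libraries of untreated cells and 5, 2 and 2 of stimulated cells in normal medium. In insulin-resistant medium they held 4, 2 and 3 untreated and 3, 6 and 0 stimulated ones. No 2 libraries of a group agreed within sampling noise (144 pairs, lowest chi-square per gene 4.2). The main fit did not pair the groups by replicate number. Over 54 same-number pairs the median correlation of deviations was 0.14, the lowest was -0.817 and 30 were over 0.1. Over 432 pairs with other numbers the median was -0.000554, the lowest was -0.865 and 161 were over 0.1.

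A count of 0 would allow 3 counts per library, and the members lie far above that. The members, classes and lists were chosen with earlier results of these data known, and the ratios after their values had been seen. Values by group are given for the 2 members with the largest and the 1 with the smallest log2 fold change for insulin in normal medium per class, the 2 with the largest difference of responses, members called against their class, and a few others named in passing; of the other lists, the 3 genes with the smallest adjusted p. Alternatives were DESeq2 1.42.0, its size factors, averaged TMM factors, scaling to hepatocyte markers, other filters, a replicate block, fits of only the groups compared or within a batch, summed triplets, and leaving out libraries. The count test was tested on simulated counts with known changes.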

Additional observations from a re-analysis of the deposited data

Results flagged for a closer look

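The insulin response of 34 members was lower in insulin-resistant than in normal medium in the edgeR test of the difference itself, and 12 of the members given by group are among them. Their differences, in log2 units, were -1.60 for LYAR, -1.56 for NOP56, -1.48 for RRP12, -1.43 for DDX21, -1.41 for POLR1B, -1.33 for RRP9, -1.27 for NOP2, -1.19 for DKC1, -1.09 for NOP16, -1.06 for RRN3, -0.74 for HEATR1 and -0.64 for GRWD1. Without the 6 libraries low in COL1A1 they were smaller, in the same order -0.93, -0.89, -0.94, -0.89, -0.76, -0.95, -0.72, -0.70, -0.77, -0.44, -0.36 and -0.36, and GRWD1 no longer passed (adjusted p = 0.0639). No member passed this test with summed triplets, as given above.

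In 88 groups of 9 libraries searched for a library far from the others by Dixon's test, 5 had one, and chance gives about 1 in 20 groups. RRP12 was at 59.4 CPM in insulin-stimulated replicate 9 in insulin-resistant medium, above the other 8. HEATR1 was at 179 CPM in insulin-stimulated replicate 5 in normal medium, one of the libraries low in COL1A1. POLR1B was at 56.5 CPM in untreated replicate 5 in normal medium, and the mean log2 level of the RNA polymerase I class was highest in the same library, at 0.12. NPM1 was at 781 CPM in untreated replicate 4 in insulin-resistant medium, the lowest of its group.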

How the results depend on the processing

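With the 6 libraries low in COL1A1 left out, insulin in normal medium gave -0.01 for FBL, and the medium effect in untreated cells gave 0 members higher and 4 lower (10.7% and 16% of all genes), with NAT10 at -0.20 (0.00 with all libraries, adjusted p = 0.00629 without the 6). Libraries with FN1 above 20000 CPM were untreated replicates 7 to 9 in both media and insulin-stimulated replicates 4 to 9 in insulin-resistant medium. No insulin-stimulated library in normal medium was among them. With these left out as well, the medium in untreated cells gave 0 members higher (8.82% of all genes) and NAT10 at -0.23. Insulin in normal medium then gave 35 members higher (21.5% of all genes). The medium in insulin-stimulated cells gave 36 lower (21.2%). The difference of responses gave 31 lower (12.2%), and GAR1, GRWD1 and NCL no longer passed. In this fit each group in insulin-resistant medium is a single triplet. Untreated replicates 4 to 6 are all of 24 May, and insulin-stimulated replicates 1 to 3 are of 22 April and 11 April. Insulin, triplet and batch date can therefore not be told apart within that medium. Scaling to hepatocyte markers put the median of all genes at 0.13 to 0.47, where it was -0.04 to 0.03 in the main fit. It gave 25 members higher and 0 lower for the medium in untreated cells (20.7% and 2.35% of all genes). In insulin-stimulated cells it gave 1 higher and 25 lower (36.4% and 3.85% of all genes). There FBL was at 0.09, UBTF at 0.43 and NPM1 at 0.06. Summed triplets gave 19 members higher with insulin in normal medium (1.76% of all genes), 0 higher and 0 lower for the medium in untreated cells (1.89% and 0.484%), and 0 lower for the difference of responses (0.0196%); fewer samples enter that fit. A fit of only the groups compared gave 1 member higher and 21 lower with insulin in insulin-resistant medium (7.01% and 16.3% of all genes); it gives no value for the difference of responses. The replicate block gave 2 members lower with insulin in insulin-resistant medium (NOP56 at -0.45, RRN3 at -0.36; 9.8% of all genes were lower) and the same counts as without the block in the other 4 comparisons. Only 2 of the 36 libraries correlated best with their own number.

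Within the 22 April batch insulin in normal medium gave 13 members higher (1.84% of all genes) with FBL at -0.01, the medium gave 0 and 0 in untreated cells and 21 lower in insulin-stimulated cells (3.42% of all genes), and the difference of responses gave 0. Within the 11 April batch the medium gave 0 and 0 in untreated cells and the difference of responses 18 (2.97% of all genes), and within the 24 May batch, which allows 2 of the comparisons, the medium gave 0 and 0. Leaving out each library in turn gave 35 to 37 members higher with insulin in normal medium, 0 to 3 lower with insulin in insulin-resistant medium (3 without untreated replicate 7), 0 to 5 higher for the medium in untreated cells (0 without untreated replicate 1, 2 or 3 in insulin-resistant medium, 1 without untreated replicate 4 in normal medium, 2 without untreated replicate 6 in insulin-resistant medium), 36 lower for the medium in insulin-stimulated cells and 34 to 35 lower for the difference of responses. Shares of all genes were not taken in these leave-out fits. With all libraries 24.9% of all genes were higher and 0% lower in the first 2 of these comparisons. For the medium 13.3% were higher in untreated cells and 26.3% lower in insulin-stimulated cells, and for the difference of responses 23.5% were lower. The cause of these changes was not tested. Depth was no limit for the members.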

Other observations

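Levels of the members and of the proliferation markers, which are often taken as measures of growth, did not go together in every comparison. Between the media in untreated cells, without the 6 libraries low in COL1A1, 12 of 16 proliferation markers were lower in insulin-resistant medium and none higher, with a median log2 fold change of -0.73, where 16% of all genes were lower, while the members had a median of -0.03 with 4 lower. With insulin in normal medium, again without these libraries, the median was -0.21 for the proliferation markers, with 1 lower. It was 0.53 for the members, with 35 higher. Of all genes 15.4% were higher and 18.1% lower there. Among insulin-stimulated cells, with all libraries, the summed proliferation markers had a median of 897 CPM (797 to 1750) in insulin-resistant medium. In normal medium it was 1590 CPM (947 to 1840), so the median was lower in insulin-resistant medium and the ranges overlap. Of the 39 members 36 were called lower in that comparison, where 26.3% of all genes were lower.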
